A study of Mus musculus with 6 samples.

Results

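The methylomes of 4 genes of pluripotency regulators, Pou5f1 (encoding OCT4), Sox2, Sall4 and Lin28a, were examined. The genes were chosen by name, as 4 of the 21670 protein-coding genes of GENCODE M21 on chromosomes 1 to 19 and X, and their promoters, gene bodies, 10 kb flanks, the 3 kb before the Pou5f1 start and the 130 kb after the Sox2 start held 4027 CpG sites. Whole-genome bisulfite sequencing had been done on advanced pluripotent stem cells (ASCs), naive embryonic stem cells (ESCs) and primed epiblast stem cells (EpiSCs), with 2 libraries of each. All 6 libraries carry the strain label 129S2/SvPasCrl, the genotype label wild type and the same cell type label, embryonic stem cells. The study's methods describe ASCs as cells kept in Activin A, BMP4, CHIR99021 and LIF, and ESCs as cells kept in the inhibitor medium 2i with LIF. They also describe ASC lines from embryos with a GOF-GFP or Stella-GFP reporter. ESC and EpiSC lines of the study, used for expression, came from crosses with GOF-GFP males too. These crosses joined 129/sv females to males of mixed strain background, which the strain label does not name. GOF-GFP is a transgene that joins GFP to the Pou5f1 promoter and distal enhancer and lacks the proximal enhancer. The cells taken for methylation are described as female. The study's text and the labels do not state which lines were sequenced, and the genotype label names no transgene. The study's supplementary table on the bisulfite libraries was not available. The methods call the 2 libraries of a group biological replicates without saying whether they were separate lines or cultures. The p-values rest on read counts and on a spread between libraries that was pooled over the 3 groups and moderated across regions. They cover no variation between lines or cultures that these libraries do not hold.

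OCT4 and SOX2 bind DNA together and hold pluripotent cells in their state. SALL4 is a zinc finger factor that acts with them, and LIN28A is an RNA-binding protein that blocks maturation of let-7 microRNAs. Pou5f1 is driven by its promoter and a pair of upstream enhancers: the distal enhancer is known for its use in naive cells and germ cells, and the proximal enhancer for its use in the epiblast. Sox2 lies within the long non-coding gene Sox2ot and is driven in ESCs by a distal control region more than 100 kb downstream. Methylation of CpG-rich promoters and enhancers is generally linked to silence, whereas bodies of expressed genes are often methylated.

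The level of a region is the percentage of read observations of its CpG sites that were methylated. A region was called different where a quasi-binomial model, with its dispersion moderated across regions, gave a Benjamini-Hochberg adjusted p under 0.05 over all regions of its class and a difference between group means of 20 percentage points or more. The libraries held 63803799 to 74925271 CpG observations, or 2.96 to 3.46 reads per site.

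Pou5f1 occupies chr17:35506018-35510772 (GRCm38, plus strand, 5 exons), Sox2 chr3:34650405-34652461 (plus strand, 1 exon), Sall4 chr2:168748332-168767201 (minus strand, 4 exons) and Lin28a chr4:134003330-134018841 (minus strand, 4 exons). Their promoters, which span the 1000 bp before and 100 bp after each start, differ in CpG content. The Sox2 promoter has 92 CpG sites, more than 96.4% of promoters, and the Pou5f1 promoter has 20, with an observed over expected CpG ratio of 0.215 against 0.818 for Sox2. Sall4 and Lin28a have 32 and 30 sites, near the median of 28. The 300 bases before the starts of Pou5f1 (chr17:35505718-35506017) and Sox2 (chr3:34650105-34650404) show this contrast, with CpG sites in capitals, as in the later sequences, all read from the reference genome 5′ to 3′ in the direction of the gene:
Pou5f1: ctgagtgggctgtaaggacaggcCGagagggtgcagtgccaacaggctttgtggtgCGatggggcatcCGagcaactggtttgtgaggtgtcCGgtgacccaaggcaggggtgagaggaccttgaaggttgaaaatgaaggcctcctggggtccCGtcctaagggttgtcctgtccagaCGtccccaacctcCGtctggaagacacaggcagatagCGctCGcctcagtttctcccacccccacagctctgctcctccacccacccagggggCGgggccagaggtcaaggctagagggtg
Sox2: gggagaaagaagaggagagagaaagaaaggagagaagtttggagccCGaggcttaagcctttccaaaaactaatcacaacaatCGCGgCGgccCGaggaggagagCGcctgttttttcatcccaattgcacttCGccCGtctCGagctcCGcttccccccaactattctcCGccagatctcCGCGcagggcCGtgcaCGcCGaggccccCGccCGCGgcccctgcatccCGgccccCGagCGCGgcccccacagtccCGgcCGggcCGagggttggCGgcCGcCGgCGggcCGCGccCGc
These stretches have 10 and 33 CpG sites, and both were nearly free of methylation in every group. In the Pou5f1 stretch 2 of 171 observations in ASCs, 0 of 155 in ESCs and 1 of 93 in EpiSCs were methylated. In the Sox2 stretch the counts were 1 of 242, 2 of 194 and 2 of 182.

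All 4 promoters were at or below 9.84% in every library. None was called higher in ASCs than in ESCs, lower in ASCs than in EpiSCs or higher in EpiSCs than in ESCs, changes that 17.2%, 24.4% and 37% of the 14434 promoters tested showed. Fisher's exact test and limma also called 0 in each comparison, but they required the same 20 points, which no member promoter reached. By the quasi-binomial test the promoters with an unadjusted p under 0.05 numbered 0, 1 and 1. The promoter behind both was that of Sall4. It stood at 2.21% and 1.65% in the ASC libraries, 0% and 0.84% in the ESC libraries and 9.25% and 9.84% in the EpiSC libraries, and its 7.61 points between ASCs and EpiSCs had an adjusted p of 0.011. The EpiSC libraries were thus the highest without overlap, by less than the 20 points required. The outer 500 bp of this promoter were higher in EpiSCs than its average, as given with the windows upstream of Sall4. The Lin28a promoter was at 0.73% and 3.03% in EpiSCs, 3.45% and 2.97% in ASCs and 2.35% and 1.5% in ESCs. EpiSCs overlapped both other groups, and ASCs lay above ESCs by 1.28 points (adjusted p = 0.579). The Pou5f1 and Sox2 promoters were at 0% to 1.32% in all libraries.

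**Figure D1:**
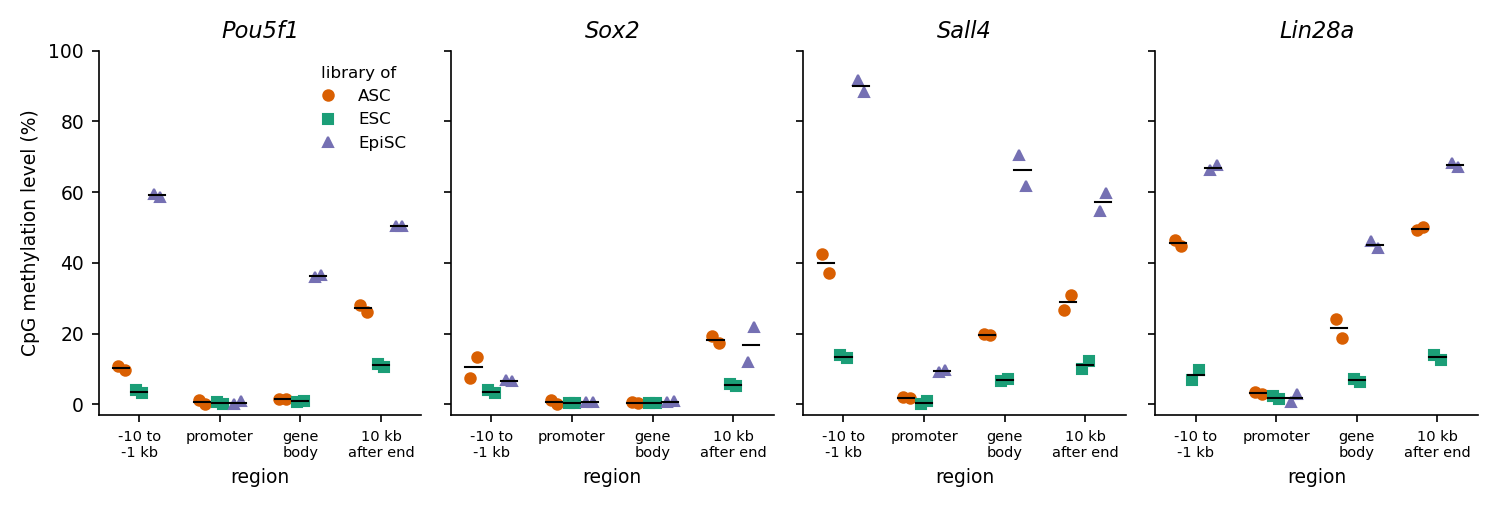
CpG methylation level in percent of each library (symbols, 2 per group) in 4 regions of each gene, with the group mean as a bar: 10 to 1 kb before the start, promoter, gene body and the 10 kb after the gene's end. Promoters lie at or below 9.84%. EpiSCs are called above ASCs in the bodies of Pou5f1, Sall4 and Lin28a but not in that of Sox2, which is at 0.24% to 0.89% in all libraries.

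In contrast, 3 of the 4 gene bodies separated ASCs from EpiSCs. Bodies of Pou5f1, Sall4 and Lin28a were called lower in ASCs than in EpiSCs and higher in EpiSCs than in ESCs, which 59.2% and 96.1% of the 19483 bodies tested also showed. No body was called higher in ASCs than in ESCs, although 87.3% of all bodies were. By the quasi-binomial test 2 of the 4, Sall4 and Lin28a, had an unadjusted p under 0.05 for that contrast. Fisher's exact test and limma also called 0, but they required the same minimum difference, which no member body reached in that contrast. The median body stood at 16.3% in ESCs, 56.7% in ASCs and 81.9% in EpiSCs.

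The Pou5f1 body was at 36% and 36.5% in EpiSCs, 1.42% and 1.63% in ASCs and 0.58% and 1.08% in ESCs. ASC and ESC libraries lay close together and far below EpiSCs: ASCs differed from ESCs by 0.70 points (adjusted p = 0.0641) and from EpiSCs by -34.7 points (adjusted p = 1.02e-10). The Sall4 body was at 70.6% and 61.8% in EpiSCs, 19.9% and 19.5% in ASCs and 6.54% and 7.05% in ESCs. Its ASC libraries stood 12.9 points above ESCs (adjusted p = 2.66e-06) and 46.5 points below EpiSCs, a difference of -46.5 points with an adjusted p of 3.03e-10. The Lin28a body was at 46.1% and 44.15% in EpiSCs, 24.2% and 18.7% in ASCs and 7.14% and 6.42% in ESCs. ASCs exceeded ESCs by 14.7 points (adjusted p = 1.65e-06) and differed from EpiSCs by -23.7 points (adjusted p = 3.03e-07). The single-exon body of Sox2 was between 0.24% and 0.89% in all libraries, and no contrast had an adjusted p under 0.445. Among all bodies tested in ASCs, 0.344% were lower than Sox2, 1.47% lower than Pou5f1, 8.22% lower than Sall4 and 9.1% lower than Lin28a.

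Flanking sequence was less uniform. Of the 8 flanks (the 9 kb before each promoter and the 10 kb after each gene), ASCs were above ESCs in 3 and below EpiSCs in 5 by the call, and 6 were higher in EpiSCs than in ESCs, against 91.2%, 68.1% and 98.1% of 40937 flanks. Both Lin28a flanks and the upstream flank of Sall4 made up the first count. Among the 5 is the downstream flank of Pou5f1, whose call against EpiSCs was lost at the limit given with the depth at that gene (-2.42 points, adjusted p = 0.205). Upstream of Lin28a ASCs were at 46.4% and 44.7%, ESCs at 7.01% and 9.77% and EpiSCs at 66.15% and 67.8%, so ASCs stood nearer to EpiSCs there. Upstream of Sall4 ASCs were at 42.6% and 37.2%, ESCs at 13.8% and 13.1% and EpiSCs at 91.8% and 88.4%, with ASCs nearer to ESCs. The 2 Sox2 flanks were low in all groups: upstream, 6.75% and 6.5% in EpiSCs, 7.5% and 13.35% in ASCs and 3.99% and 3.16% in ESCs. Downstream of Sox2 they were 12% and 21.8% in EpiSCs, 19.35% and 17.2% in ASCs and 5.73% and 5.27% in ESCs, and ASCs overlapped EpiSCs.

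The position of ASCs between the other groups was expressed as the ASC level minus the ESC mean, divided by the distance from ESCs to EpiSCs, where that distance was at least 40 points. A value of 0 is the ESC level and 1 the EpiSC level. The median was 0.646 over 17365 bodies and 0.635 over 37407 flanks. The Sall4 body was at 0.22 and 0.214 in the ASC libraries, with 2.83% of bodies lower. The upstream flanks were at 0.128 and 0.109 for Pou5f1 (0.302% of flanks lower; up to 0.535 and 0.466, with 18.3% lower, at the depth limit given with the depth at Pou5f1 and the measured ESC level), 0.38 and 0.31 for Sall4 (5% lower) and 0.649 and 0.619 for Lin28a (49.6% lower). Downstream, Sall4 was at 0.342 and 0.43 and Lin28a at 0.66 and 0.677. The flanks of Lin28a were thus near the median of all flanks, and those of Sall4 and, as measured, the upstream flank of Pou5f1 nearer to ESCs. The remaining regions were under the 40-point distance, or unmethylated in all groups.

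**Figure D2:**
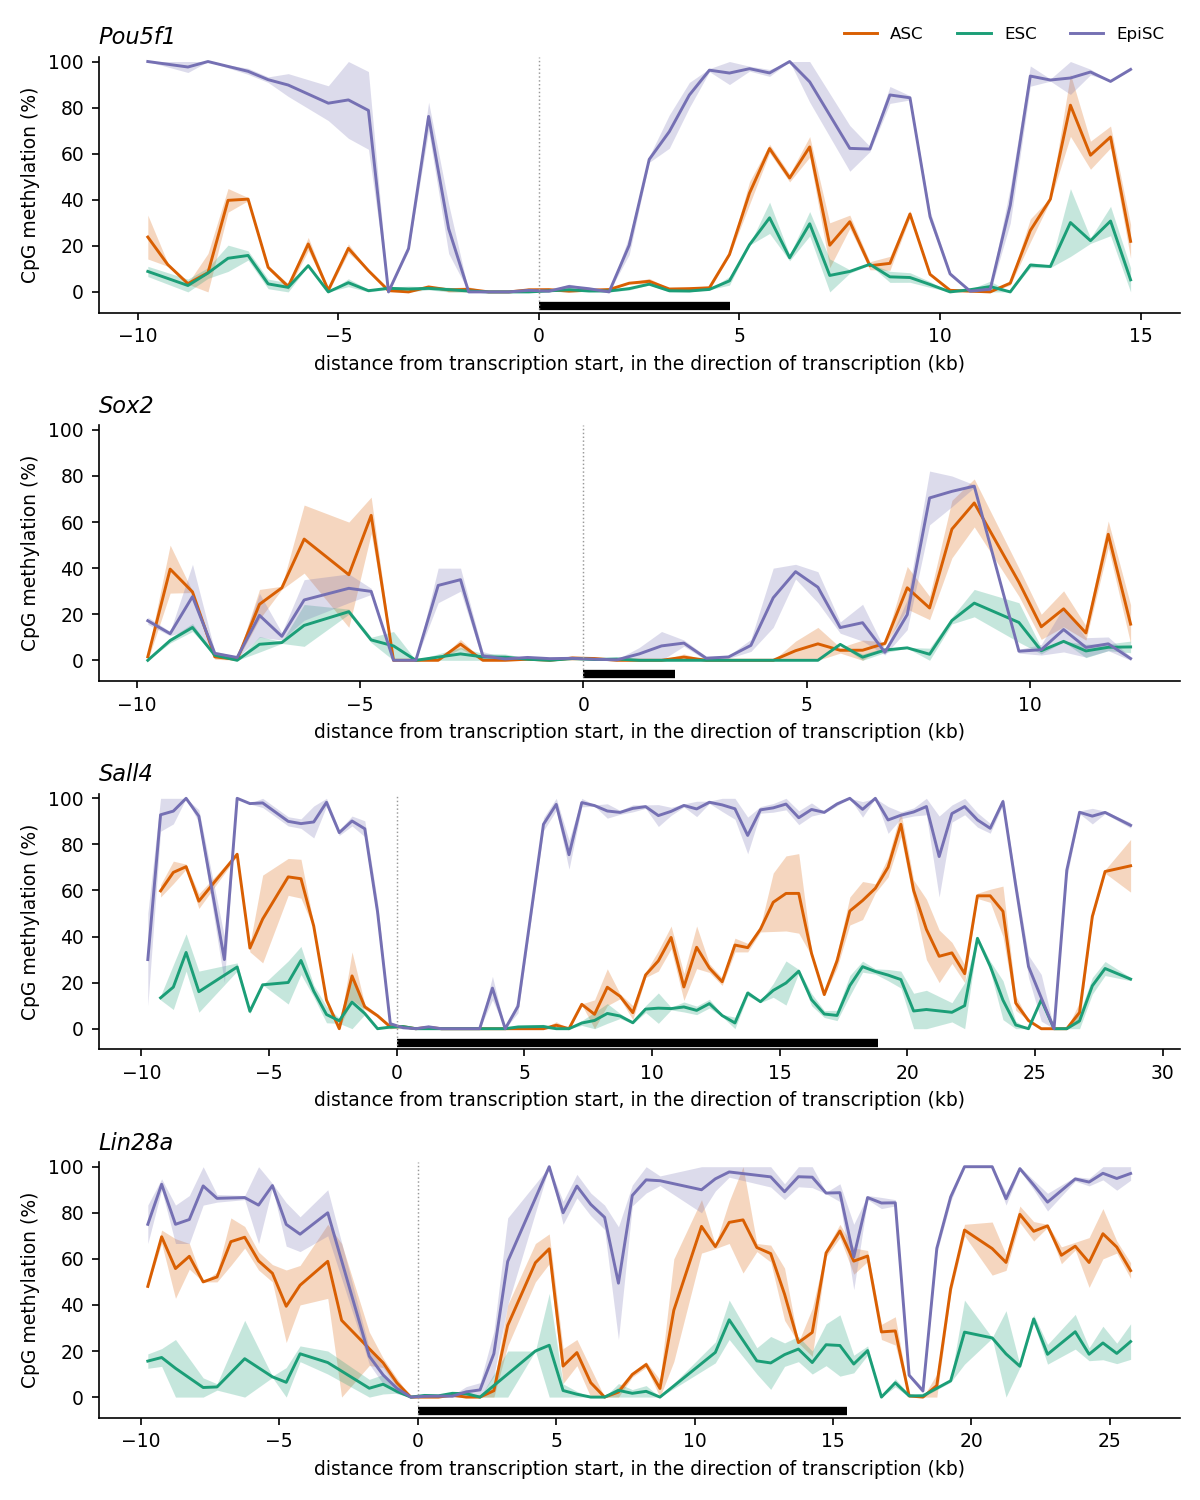
Mean CpG methylation in percent of each group in 500 bp steps against the distance from the transcription start in kb, for the 4 genes (black bar, gene; shading, range of the 2 libraries; steps with under 5 observations in a library left out). All groups fall to near 0 at each start, and the EpiSC line rises inside Pou5f1, Sall4 and Lin28a while the ASC line rises farther away at Pou5f1 and Sall4.

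The span of low methylation around the start, followed outward in 250 bp steps until a step reached 50%, measured this. Its outer steps hold some methylation, and with a limit of 20% in place of 50% the ASC span at Sall4 was 9.5 kb on average. At Sall4 it was 13.5 and 13.75 kb in the ASC libraries and 5.75 kb in both EpiSC libraries. At Pou5f1 it was 9.75 and 15.75 kb in ASCs and 4.75 kb in both EpiSC libraries. Most of the ASC span at Pou5f1 lies where read depth was higher in ASCs, as described with the depth at that gene. At the limit given there, the tiles chr17:35498001-35500000 and chr17:35510001-35512000, measured at 25.4% and 23.7% and at 25% and 26.8% in ASCs, could be as high as 100% and 91.7% and as 78.9% and 83%, past the 50% that ends a span, and the span was not recomputed at this limit. At Lin28a the libraries overlapped, with 6.25 and 6 kb in ASCs against 6.5 and 4.75 kb in EpiSCs (6.5 kb in both against 6 and 5 kb with 500 bp steps, without overlap), and at Sox2 they were at 12.25 and 12 kb against 9.75 and 13.5 kb. No test was run, since 2 libraries against 2 cannot give an exact permutation p under 0.333. With 500 bp steps both ASC libraries were at 16 kb at Pou5f1, and with a limit of 20% both were at 9 kb. With 500 bp steps the order at Sox2 turned, to 12.75 kb in ASCs and 18.75 kb in EpiSCs.

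Upstream of Sall4 the same 500 bp windows placed an edge within the promoter. The window from -1000 to -501 bp is the outer part of the promoter, which as a whole was not called. This window was called, at 46.4% and 55% in EpiSCs, 6.25% and 5% in ASCs and 0% in both ESC libraries (ASCs minus EpiSCs -45.1 points, adjusted p = 0.00159) on 20 to 32 observations. The next window outward was at 83.3% and 90.2% in EpiSCs, 10.6% and 8.33% in ASCs and 7.04% and 6.15% in ESCs. Both windows had EpiSCs above the other groups without overlap.

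Within Sall4, the gain in EpiSCs began abruptly inside the gene. The 2 kb tile from 3201 to 5200 bp after the start was at 0% in both ASC libraries and 6.2% and 12.2% in EpiSCs. The next tile (chr2:168760001-168762000) was at 93.2% and 90.1% in EpiSCs, 4.76% and 3.57% in ASCs and 0% and 0.775% in ESCs, a difference between ASCs and EpiSCs of -87.5 points (adjusted p = 8.82e-39). The tile after it was at 94.35% and 95.3% in EpiSCs, 12.4% and 14.7% in ASCs and 4.73% and 6.25% in ESCs. In the 5 following tiles up to the end of the gene ASCs were between 23.4% and 61.5%, with no steady order, and EpiSCs between 89.8% and 98.8%.

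Lin28a held 2 such tiles in its interior. The tile chr4:134010001-134012000, in an intron, was at 81.5% and 87.1% in EpiSCs, 6.8% and 8.22% in ASCs and 1.44% and 2.29% in ESCs (ASCs minus EpiSCs -76.8 points, adjusted p = 1.8e-34). The neighbouring tile nearer to the start was at 81.25% and 86.67% in EpiSCs, 17.2% and 6.06% in ASCs and 0.909% and 1.47% in ESCs. On both sides of the pair ASCs were higher: 52.1% and 54.3% in the next tile toward the start, which had too few observations for a test, and 54.8% and 44.2% in the tile toward the gene's end, likewise untested.

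The following stretches come from the interior tiles of Sall4 and Lin28a with the largest difference, and are those with the most CpG sites outside exons and masked repeats. They lie at chr2:168761005-168761304 and chr4:134011146-134011445, in introns, and are given in the direction of each gene:
Sall4: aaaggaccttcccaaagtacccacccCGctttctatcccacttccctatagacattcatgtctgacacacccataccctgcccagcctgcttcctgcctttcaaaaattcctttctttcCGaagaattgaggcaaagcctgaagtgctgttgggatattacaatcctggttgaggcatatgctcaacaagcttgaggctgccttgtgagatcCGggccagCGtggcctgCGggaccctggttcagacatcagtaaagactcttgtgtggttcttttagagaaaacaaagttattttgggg
Lin28a: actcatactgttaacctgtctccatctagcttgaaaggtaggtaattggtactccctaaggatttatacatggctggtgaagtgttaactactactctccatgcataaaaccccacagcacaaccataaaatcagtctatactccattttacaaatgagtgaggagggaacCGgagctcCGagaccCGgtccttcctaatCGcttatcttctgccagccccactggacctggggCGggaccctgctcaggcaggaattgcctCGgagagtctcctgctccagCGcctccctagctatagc
In the Sall4 stretch, with 5 CpG sites, 0 of 39 observations in ASCs, 0 of 21 in ESCs and 40 of 41 in EpiSCs were methylated. In the Lin28a stretch, with 7 sites, the counts were 4 of 53, 0 of 57 and 35 of 40.

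Upstream of Pou5f1 the promoter-proximal sequence was unmethylated in all groups, and methylation in EpiSCs appeared just beyond the second kb. The 31 CpG sites from -28 to -2017 bp (relative to the start) had 4 methylated of 559 observations in ASCs, 2 of 644 in ESCs and 1 of 300 in EpiSCs. The 9 sites from -2252 to -2998 bp had 5 of 283 in ASCs, 3 of 303 in ESCs and 53 of 84 in EpiSCs. By library, these 9 sites were at 57.9% and 67.4% in EpiSCs, 1.4% and 2.14% in ASCs and 0.595% and 1.48% in ESCs, so EpiSCs stood apart.

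In 500 bp windows, only the sixth (chr17:35503018-35503517, -3000 to -2501 bp) was called. It was at 70% and 82.4% in EpiSCs, 2.15% and 2.17% in ASCs and 0.893% and 2.15% in ESCs, on 20 to 112 observations. ASCs differed from EpiSCs by -74 points (adjusted p = 3.77e-04) and from ESCs by 0.64 points (adjusted p = 0.648). Of the 4 windows tested, 1 was called lower in ASCs than in EpiSCs, 1 higher in EpiSCs than in ESCs and 0 higher in ASCs than in ESCs, against 45.4%, 61.7% and 40.3% of 38977 windows at all genes. For the last contrast 0 windows had an unadjusted p under 0.05 in the quasi-binomial test. Fisher's exact test and limma also called 0, but they required the same 20 points, which no tested window reached in that contrast. The fifth window was at 38.1% and 16.7% in EpiSCs with 21 and 18 observations, under the minimum of 20 in 1 library, and at 0% and 1.75% in ASCs. The first 4 windows were at or below 2.22% in every library, and the second, with 17 observations in 1 ESC library, was not tested.

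Farther out, EpiSCs were low again. The Pou5f1 step from -3500 bp was at 20% and 17.65% and the step from -4000 bp at 0% in both EpiSC libraries, before 61.9% and 95.65% in the step from -4500 bp. The methylated windows were thus a short stretch with low steps on both sides.

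The edge nearer to the gene falls within 300 bases at chr17:35503718-35504017, shown with its 2 CpG sites in capitals:
Pou5f1: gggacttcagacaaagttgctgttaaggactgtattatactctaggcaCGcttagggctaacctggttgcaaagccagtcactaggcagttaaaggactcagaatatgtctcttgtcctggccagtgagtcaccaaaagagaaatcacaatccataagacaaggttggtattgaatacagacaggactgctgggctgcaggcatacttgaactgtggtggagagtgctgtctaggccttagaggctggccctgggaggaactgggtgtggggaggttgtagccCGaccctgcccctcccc
The site farther from the gene, at -2252 bp, was methylated in 6 of 18 EpiSC observations, 1 of 57 in ASCs and 0 of 58 in ESCs. The nearer site, at -2017 bp, was methylated in 0 of 9 observations in EpiSCs, 0 of 19 in ASCs and 1 of 22 in ESCs. With 9 observations, a count of 0 does not limit the EpiSC level of a single site closely.

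**Figure D3:**
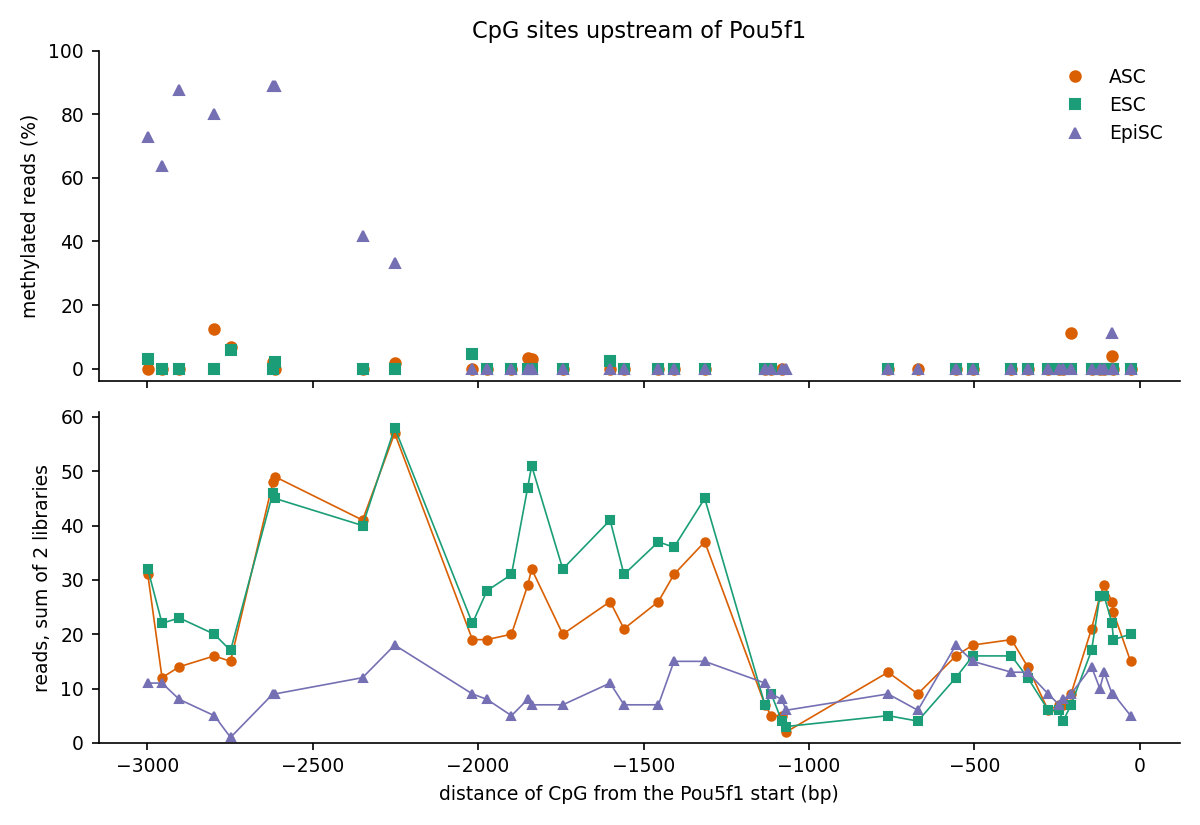
Single CpG sites in the 3 kb before the Pou5f1 start, with the share of methylated reads in percent (top, sites with at least 5 reads in a group) and the number of reads (bottom), both summed over the 2 libraries of a group, against distance in bp. From -2252 bp outward 53 of 84 EpiSC reads are methylated, against 1 of 300 nearer to the start. ASC and ESC reads do not exceed EpiSC reads in total between -1133 and -208 bp (137 in ASCs, 111 in ESCs, 141 in EpiSCs), a stretch picked for its depth.

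Read depth at Pou5f1 differed between the groups. Over 17 kb from 8 kb before to 9 kb after the start, the reads per CpG were 4.89 and 5.01 times the autosomal mean in the ASC libraries, 4.63 and 4.38 times in the ESC libraries and 1.46 and 1.78 times in the EpiSC libraries. ASCs thus had 3.06 times and ESCs 2.78 times the relative depth of EpiSCs. Depth in 16 of the 17 windows of 1 kb was over 2 times that of EpiSCs in both groups, and the lowest window was the one just before the start. Of the 23 windows outside the span and within 20 kb of the start, 2 were over 2 times in ASCs and 1 in ESCs. Between -1200 and -200 bp, the EpiSC libraries had relative depths of 1.33 and 1.78, the ASC libraries 1.2 and 1.66 and the ESC libraries 1.15 and 1.03. This stretch was picked for its depth near that of EpiSCs. Among all 19483 gene bodies, 1 had a larger ratio of ASC to EpiSC depth than Pou5f1 (2.98 for the body) and 2 had a larger ratio of ESC to EpiSC depth. The bodies of Sox2, Sall4 and Lin28a had ASC to EpiSC ratios of 0.651, 0.832 and 0.935, against a median of 0.985.

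**Figure D4:**
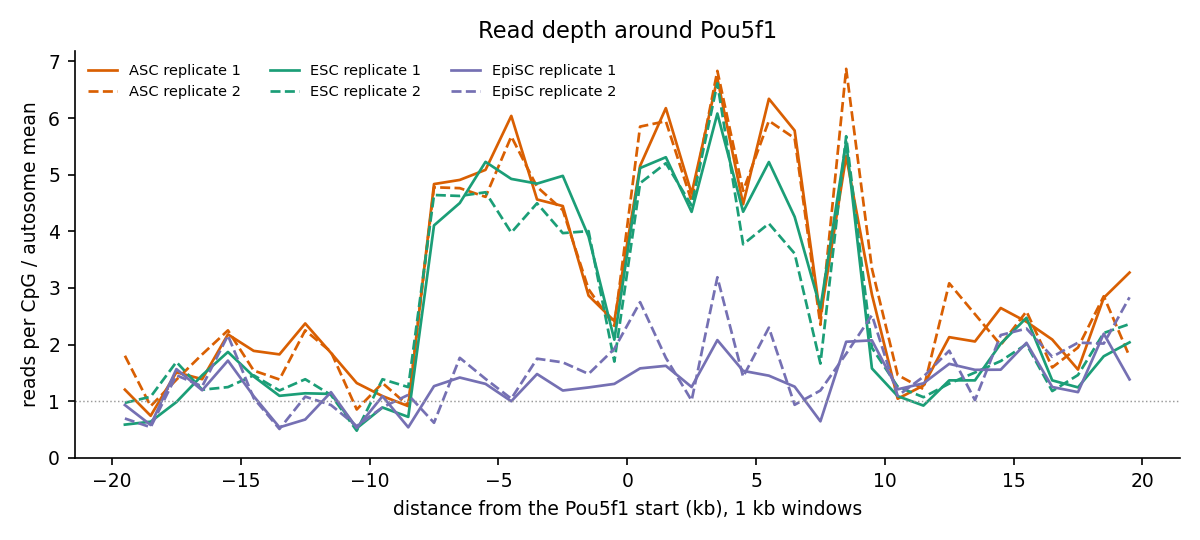
Reads per CpG divided by the autosomal mean of the library in 1 kb windows within 20 kb of the Pou5f1 start, 1 line per library. The 4 ASC and ESC lines rise together from 8 kb before to 9 kb after the start, to 4.89 and 5.01 times the mean in ASCs over the 17 kb, with a dip just before the start. The 2 EpiSC lines are at 1.46 and 1.78 times over the 17 kb. They are at 0.967 and 1.05 times over the 12 kb before it and 1.51 and 1.8 times over the 11 kb after it.

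The reporter in the methods holds Pou5f1 sequence without the proximal enhancer, and reads from added copies and from the gene itself cannot be told apart in these counts. Their part in the levels was not tested. As a limit, added after the depth was seen, every methylated observation in ASCs and ESCs was kept and the number of observations lowered to what the EpiSC depth predicts. It was applied to all regions and tiles at Pou5f1, also outside the span of high depth. The limit takes the EpiSC depth as exact and as that of the gene without added copies. Whether that holds was not tested, and the highest levels given here depend on it. The body of Pou5f1 in ASCs was then at most 4.2% and 4.915%, still -31.7 points from EpiSCs (adjusted p = 8.59e-09), and the sixth window at most 6.9% in both. The upstream flank was at most 33.3% and 29.5%. The downstream flank, measured at 28.2% and 26% in ASCs against 50.5% and 50.4% in EpiSCs, could be as high as 47.2% and 48.9%, and its difference of -2.42 points was no longer called. This flank reaches beyond the span of high depth. Of the 13 tiles over Pou5f1 and its flanks, 10 were called lower in ASCs than in EpiSCs and 3 higher in ASCs than in ESCs as measured, against 53.5% and 91.1% of all tiles, and 6 were called lower than in EpiSCs at this limit. The lost calls include the tile chr17:35518001-35520000, which lies outside the span of high depth. Its difference from EpiSCs was -46.7 points as measured and -18.5 points at the limit. ASC and ESC levels are both upper bounds at this limit, so it does not bear on the difference between them. The tile chr17:35496001-35498000 lies outside the span of high depth, and was at 100% and 96.6% in EpiSCs, 10.2% and 8.07% in ASCs and 8% and 3.61% in ESCs, the largest difference of any member tile between ASCs and EpiSCs (-89.2 points, adjusted p = 2.83e-23).

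Along the 130 kb downstream of Sox2, low and high stretches alternated. The 71 tiles from 10 kb before to 130 kb after the start included 56 with enough observations. Of these 35 were called above ESCs in ASCs, 36 below EpiSCs in ASCs, 1 higher in ASCs than in EpiSCs and 45 higher in EpiSCs than in ESCs, against 91.1%, 53.5%, 0.1% and 96.5% of 445422 tiles. From the 11th to the 51st tile after the start, the summed level was 57.65% and 59.8% in ASCs, 18.4% in both ESC libraries and 91.4% and 92% in EpiSCs. Of the 29 tiles tested there, ASCs were called above ESCs in 27 and below EpiSCs in 23. The limits of this stretch were not set in advance. Among tiles nearer to the gene, the 6th was at 9.43% and 12.8% in ASCs and the 10th at 15.4% and 21%, but the 4th at 56.4% and 47.2%.

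The 4 tiles from 103.6 to 111.6 kb after the start (chr3:34754001-34762000), taken as the place of the distal control region, were lower in ASCs than this stretch as a whole. Their summed level was 72.7% and 75.8% in EpiSCs, 3.17% and 6.37% in ASCs and 2.11% and 1.94% in ESCs, and ASC and ESC libraries were both near 0. All 4 were called lower in ASCs than in EpiSCs. ASCs differed from ESCs there by 8.09 (adjusted p = 0.0178), 1.58, 1.88 and 0 points, under the 20 points required. In the second of them EpiSCs were at 31.9% and 27.3%, against 80.95% to 93.8% in the other 3, while ASCs were at 0% and 3.16% and ESCs at 0% in both libraries. The fourth was at 87.9% and 85.5% in EpiSCs, 0% and 2.15% in ASCs and 0% and 2.15% in ESCs, a difference from EpiSCs of -85.6 points (adjusted p = 3.14e-33). Toward the gene, the tile before the 4 was at 42.9% and 38.2% in ASCs, and the tile after them, with too few observations for a test, at 8.475% and 31.1%. Other tiles showed a like pattern. The 42nd tile (chr3:34734001-34736000) was at 91.5% and 91.5% in EpiSCs, 12.5% and 26.9% in ASCs and 5.66% and 7.04% in ESCs, and the 57th (chr3:34764001-34766000) at 89.7% and 92.7% in EpiSCs, 21.95% and 14.4% in ASCs and 2.33% and 2.86% in ESCs, and neither was called higher in ASCs than in ESCs.

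The following 150 bases at chr3:34760002-34760151 come from the fourth tile and are the stretch with the most CpG sites outside masked repeats:
Sox2: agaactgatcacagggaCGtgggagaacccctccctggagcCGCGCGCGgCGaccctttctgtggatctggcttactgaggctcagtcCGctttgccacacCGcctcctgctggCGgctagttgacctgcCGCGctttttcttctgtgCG
Over its 12 CpG sites, the methylated observations were 0 of 57 and 2 of 44 in the ASC libraries, 0 of 51 and 1 of 48 in the ESC libraries and 63 of 66 and 25 of 27 in the EpiSC libraries. The octamer ATGCAAAT, a motif bound by POU factors, was searched on both strands. It occurred in 7 of the 123 member tiles, untested ones included, and in none of these 4. The 7 were all tested tiles. Over the genome, 10.3% of the tiles tested held it.

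**Figure D5:**
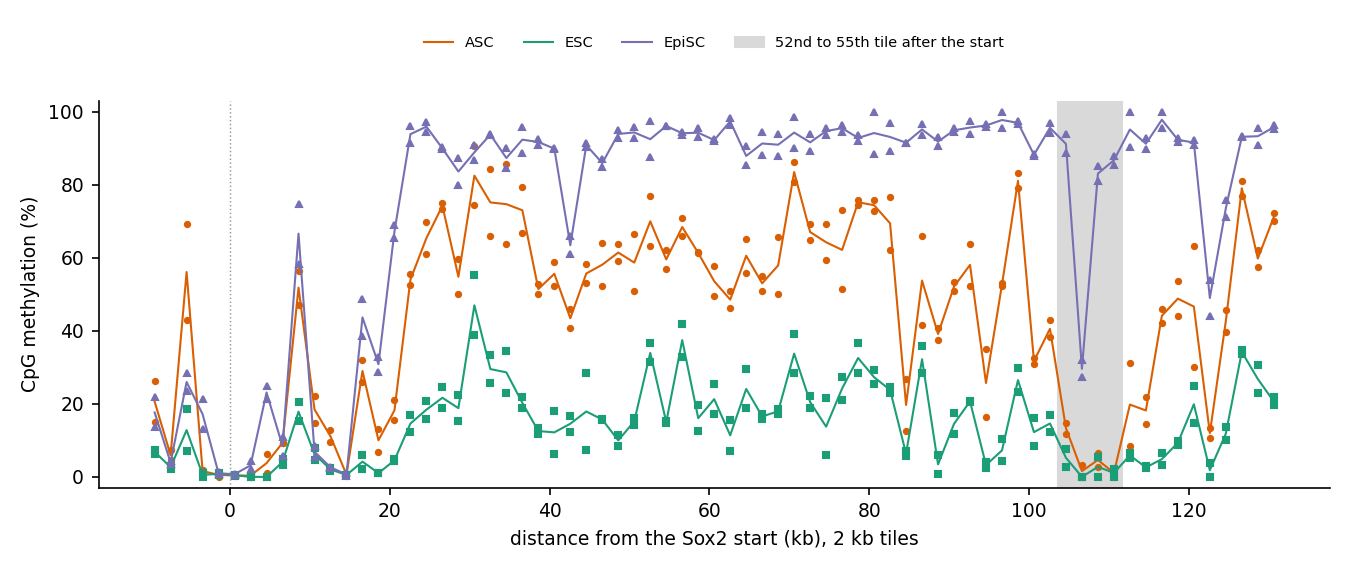
CpG methylation in percent in 2 kb tiles against distance from the Sox2 start in kb (symbols, libraries; lines, group means; grey, 52nd to 55th tile after the start). In the grey stretch ASCs sit with ESCs, at summed levels of 3.17% and 6.37%, while they lie between the other groups over most tiles from the 11th to the 51st.

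The single tile called higher in ASCs than in EpiSCs, by at least 20 points, was chr3:34644001-34646000, 6.4 to 4.4 kb before the Sox2 start in an intron of Sox2ot. It was at 28.6% and 23.4% in EpiSCs, 42.9% and 69.3% in ASCs and 18.6% and 7% in ESCs (ASCs minus EpiSCs 30.1 points, adjusted p = 1.27e-04). The 2 ASC libraries differed by more than ESCs and EpiSCs did from each other, and without ASC replicate 2 the call was lost. In 2 further Sox2 tiles, chr3:34660001-34662000 and chr3:34662001-34664000, both ASC libraries were above both EpiSC libraries by less than 20 points, with differences of 11.6 and 8.49 points (adjusted p = 9.25e-05 and 5.5e-07). Of the 5 member tiles with the largest ASC to ESC difference, 4 lay at Sox2. Tested tiles numbered 56 there, against 13 at Pou5f1, 19 at Sall4 and 17 at Lin28a. The largest difference was in the tile chr3:34748001-34750000, at 96.5% and 97.4% in EpiSCs, 83.1% and 79% in ASCs and 23.2% and 29.8% in ESCs (ASCs minus ESCs 54.55 points, adjusted p = 3.82e-23). Over all 445422 tiles the median difference of ASCs from ESCs was 46.55 points. The tile chr3:34748001-34750000 is 4 kb from the start of the low stretch described above.

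Across the members, 70 tested tiles were at or above 80% in EpiSCs, and 10 of them were at or below 15% in ASCs: 2 at Pou5f1, 3 at Sox2, 3 at Sall4 and 2 at Lin28a. Of the 2 at Pou5f1, 1 lies within the span of high depth and could be as high as 43.6% and 35.1% in ASCs at the depth limit. Over all tiles tested, 4456 of 394998, or 1.13%, met the same limits. These limits were chosen after the member tiles had been seen, and no test was made.

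The relatives of the members were compared next. Of 10 paralogs (Pou2f1, Pou3f1, Pou3f2, Sox1, Sox3, Sox15, Sall1, Sall2, Sall3 and Lin28b), 8 promoters were tested: ASCs were above ESCs in 1, above EpiSCs in 1 and below EpiSCs in 2 by the call. Over all promoters the calls were 17.2%, 0.152% and 24.4%. The promoter called above EpiSCs was that of Lin28b, the close relative of Lin28a that also blocks let-7. It was at 1.41% and 1.56% in EpiSCs, 33.9% and 30.2% in ASCs and 7.32% and 16.3% in ESCs, on 41 to 71 observations. ASCs were 20.2 points above ESCs (adjusted p = 0.0326) and 30.5 points above EpiSCs (adjusted p = 3.75e-04). The Sall2 promoter, named after its values were seen and not tested with 32 to 48 observations, was also highest in ASCs. It was at 13.9% and 12.5% in EpiSCs, 48.8% and 45.45% in ASCs and 8.33% and 23.7% in ESCs. The other untested promoter, that of Pou2f1, was highest in EpiSCs, on 13 to 25 observations. Its levels were 84% and 100% in EpiSCs, 22.2% and 0% in ASCs and 0% in both ESC libraries. The promoter of Sox15, a SOX factor expressed in ESCs, was at 93.5% and 92.2% in EpiSCs, 1.25% and 0% in ASCs and 2.5% and 1.54% in ESCs (ASCs minus EpiSCs -92.3 points, adjusted p = 5.83e-07). That of Sox3, which is X-linked, was at 28.65% and 38.2% in EpiSCs, 1.13% and 0% in ASCs and 0% in both ESC libraries. ASCs were called above ESCs in the bodies of 5 of the 10 paralogs and below EpiSCs in 6, against the same shares of all bodies as above (87.3% and 59.2%), with median differences of 14.2 and -20.5 points against 39.2 and -21.9 over all bodies.

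Among 19 further genes of the pluripotency network, 14 promoters were tested, with a median difference of ASCs from ESCs of 0.42 points against 3.04 over all promoters. Of the 14, 2 were called lower in ASCs than in EpiSCs, against 24.4% of all promoters. The median difference of ASCs from EpiSCs was -6.39 points, against -6.73 over all promoters. Among the 2 was the promoter of Cdh1, which encodes E-cadherin. It was at 31.8% and 24.8% in EpiSCs, 5.44% and 1.27% in ASCs and 2.97% and 1.64% in ESCs. The promoters of Dppa2 and Dppa4, named after their values were seen, were untested, on 34 to 44 and 11 to 33 observations. Dppa2 was at 95.1% and 100% in EpiSCs, 11.6% and 5.88% in ASCs and 4.88% and 0% in ESCs. Dppa4 was at 96.4% and 90.9% in EpiSCs, 0% in both ASC libraries and 0% and 3.23% in ESCs. Those of Nr5a2, Kdm4c and Epcam, also untested, were highest in EpiSCs by smaller differences. The cells are described as female, and whether the state of the X chromosome takes part in the values of Sox3 was not tested. ASCs were called above ESCs in 10 of the 19 bodies and below EpiSCs in 13, against 87.3% and 59.2% of all bodies, with medians of 20.3 and -25.5 points. The lists were chosen by hand, and nothing is read from them beyond these counts.

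By the root mean square difference over the 12 promoter and body levels of the 6 libraries, genes close to Pou5f1 among 14329 included Gm5617 (1.7 points) and Rbm15 (1.97 points). Those closest to Sox2 were Pcbp1, Gm10638 and A930002H24Rik, at 0.434 to 0.526 points, and 196 genes were within 5 points of it. Sall4 was closest to Eef1g, Bcl6b and B4galnt4, at 2 to 2.46 points, and Lin28a to Pabpc1, Smndc1 and Mnt, at 1.87 to 1.93 points. Within 5 points lay 64 genes for Pou5f1, 94 for Sall4 and 206 for Lin28a.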

How the data were processed

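Bisulfite libraries of ASCs, ESCs and EpiSCs (2 each) were made by post-bisulfite adaptor tagging. According to the study's methods and the submitters' processing notes, reads were trimmed with Trim Galore, aligned with Bismark 0.16.3 to GRCm38 and deduplicated, and CpG sites were summarised with MethPipe, both strands combined. The deposited tables give, for each CpG, the methylated fraction and the read count (coverage). No normalization by the authors is stated. Positions of all 21327445 sites used fell on CpG sites of GRCm38. The methylated count of a site was taken as fraction times coverage, rounded to a whole number.

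Groups came from the sample titles. Regions were built from GENCODE M21, 1 transcript a gene (the APPRIS principal one, longest first), and a level was the sum of methylated over all observations. Regions needed 40 observations in every library (500 bp windows, 20). Each class was fitted over all its regions with a quasi-binomial logistic model with a group term, its Pearson dispersion moderated by squeezeVar of limma 3.58.1 (R 4.3.3), with two-sided F tests and Benjamini-Hochberg adjustment over the class. The scripts were tested on simulated data. The members, their lists and the regions were chosen with earlier results of these data known. Named beside the members were the promoters of listed genes called between ASCs and EpiSCs, the 3 most alike genes of each member and the tiles with the 5 largest differences of each contrast. Some genes that this rule names are not reported here. The smallest exact permutation p is 0.333 for 2 libraries against 2.

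Replicates differed by more than sampling noise (mean chi-square of 1.32 to 1.47 per 2 kb tile, where sampling alone gives about 1), so all libraries were kept apart. At about 3 reads a site, single sites are imprecise and regions are read over many sites. No intervals are given, and the depth limit at Pou5f1 does not cover counting error. Bisulfite conversion and mapping of reads that match several places could shift levels. Alternatives were other minimums, differences, tests, windows, tile positions, a replicate block and leaving out each library, with 1 alternative on depth at Pou5f1 added after seeing the data.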

Additional observations from a re-analysis of the deposited data

Results flagged for a closer look

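Read depth is outside the methylation comparisons, and it stood apart at Pou5f1. Over the 17 kb from 8 kb before to 9 kb after its start, the depth relative to the autosomes was 3.06 times that of EpiSCs in ASCs and 2.78 times in ESCs, in both libraries of each group. Over the 12 kb before this span the ratios were 1.47 and 1.07, and over the 11 kb after it 1.2 and 0.93. The span was drawn after the depth had been seen. Groups of 2 libraries are too small for a search for single outlying libraries.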

How the results depend on the processing

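The 2 libraries of a group share replicate numbers with the other groups by name only. Across 445422 tiles, the difference between replicates 1 and 2 correlated between groups with r of 0.0023 (ASCs and ESCs), -0.0062 (ASCs and EpiSCs) and -0.00065 (ESCs and EpiSCs). With the replicate block, 0 of 79 results changed their call (3 gene bodies below EpiSCs in ASCs with it as without it).

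Of the single differences, 865 of 894 values under the alternatives kept their side of the call and 0 reversed. Of the counts and spans, 266 of 314 kept theirs or stayed near the value reported, 15 gained and 20 lost calls, and 13 moved. Without the minimum difference, calls rose to 1 promoter below EpiSCs in ASCs and 1 higher in EpiSCs than in ESCs (both Sall4), 2 bodies and 8 flanks above ESCs in ASCs, 1 flank higher in ASCs than in EpiSCs, 37 tiles of Pou5f1, Sall4 and Lin28a (from 22) above ESCs in ASCs, 1 lower, and 3 Sox2 tiles higher in ASCs than in EpiSCs. Requiring 40 points left 1 body in each EpiSC contrast, 0 flanks above ESCs in ASCs, 2 flanks below EpiSCs in ASCs, 17 and 11 tiles above ESCs in ASCs, 16 and 22 below EpiSCs in ASCs, at Sox2 and at the other members, and 0 Sox2 tiles higher in ASCs than in EpiSCs. A minimum of 100 observations, by testing fewer tiles, left 6 and 6 tiles above ESCs in ASCs, 5 and 18 below EpiSCs in ASCs, 0 higher in ASCs than in EpiSCs, and 7 and 18 higher in EpiSCs than in ESCs. The unweighted mean over sites also gave 0 Sox2 tiles higher in ASCs than in EpiSCs, and leaving out each library gave 0 to 1. For the Pou5f1 windows, both EpiSC contrasts had 2 calls with a minimum of 10 observations or windows moved by 250 bp, 0 with a minimum of 40, and 1 to 2 when a library was left out (2 without EpiSC replicate 2). Reads at Pou5f1 set to the EpiSC depth gave 5 flanks above ESCs in ASCs, where both levels are upper bounds and the count shows nothing of the difference.

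Spans of low methylation moved to 9.5 kb (Sall4, ASCs), 4.75 kb (Sall4, EpiSCs), 9 and 4.38 kb (Pou5f1, ASCs and EpiSCs), 11.4 and 6.75 kb (Sox2, ASCs and EpiSCs) and 4.38 and 4.25 kb (Lin28a, ASCs and EpiSCs) with a limit of 20%. With steps of 500 bp they were 18.25 and 6 kb (Sall4), 16 and 5 kb (Pou5f1), 12.75 and 18.75 kb (Sox2) and 6.5 and 5.5 kb (Lin28a). Over all regions, promoters above ESCs in ASCs numbered 2485 and were 4157 with a minimum of 20 observations and 346 with 100, and bodies below EpiSCs in ASCs fell from 11529 to 1546 with 40 points. Tiles below EpiSCs in ASCs numbered 238110, and 377748 with a minimum of 20 observations, 66385 with 100 and 54345 with 40 points. At about 3 reads a site, differences at single sites were not tested.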
